A study of Rattus norvegicus with 15 samples.

Results

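The comparison described here is that of E18 with E17 first molars of the rat, the last step of a series that runs from E15 through E17 to E18. Its members are the 10 single-tooth RNA libraries of these stages, 5 per stage, out of 15 libraries in all, chosen by the stage that closes each library name. All teeth came from wild type DA/HanRj rat embryos that received no treatment. The E17 teeth are labelled E17.5 and titled OH6, and the E18 teeth are labelled E18 and titled OH47, with the day of the vaginal plug as day 0 in the E18 labels alone. The nominal step is thus from E17.5 to E18. How days were counted for the E17 teeth is not given in the sources used here. The E17 teeth came from 4 embryos, since replicates 1 and 2 are the left and right molar of the same embryo, and the E18 teeth came from 5 embryos. Each stage held 3 left and 2 right teeth. The E18 labels name lower first molars and RNAlater, whereas the E17 labels say Molar 1 and name TRI Reagent. The published methods name RNAlater and then TRI Reagent for the E15 and E17 teeth and do not cover the E18 teeth. Stage coincides with title code, so that stage and any difference in litter, dissection or preparation that followed these codes cannot be told apart. The salmon counts of 14185 genes are given below as normalized counts, that is, counts divided by a size factor per library. These values are not corrected for gene length, so levels are compared between teeth and never between genes.

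A molar germ consists of an epithelium folded over a condensed mesenchyme. At the cap stage a signalling centre in the epithelium, the primary enamel knot, secretes members of the Hedgehog, FGF, Wnt and BMP families and itself ceases to divide, while the epithelium around it grows and folds. Ectodysplasin signalling from the Eda ligand to its epithelial receptor Edar sets the size of the knot and the number of cusps that follow. The study of origin grouped the genes by what their loss does to mouse molars. Progression genes are those whose loss arrests the tooth, and shape genes those whose loss alters crown form. Double genes arrest the tooth only together with a second gene, tissue genes affect the hard tissues, and dispensable genes are expressed in the tooth yet not required.

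E18 replicate 3, a left molar, stood apart from the other libraries, and results are therefore given with and without it. Its mean correlation with the other E18 libraries, across genes on the log2 scale, was 0.879, against 0.952 to 0.959 in the other 4, which reached 0.979 to 0.984 among themselves. In it 14.0% of the tested genes lay at least 2-fold below all 9 other libraries (1784 genes) and 0.165% at least 2-fold above (21 genes). In any other library between 4 and 41 genes lay as far below. Among the genes with a symbol, 32 of 348 lay below in this tooth and 0 above. They include Sp3, a zinc finger transcription factor, which measured 94.8 normalized counts against 2103 to 2679 in the other 9 teeth. Bmpr1a, a BMP receptor, measured 383 against 1416 to 1875. The enamel knot gene Dkk4, a secreted Wnt inhibitor, measured 12.3 against 125 to 186. The genes below were not the weakly expressed ones: their median level over the other 9 libraries was 422, against 432 for all tested genes. Library totals ranged from 10993502 to 16239849 counts in 9 libraries, E18 replicate 3 (11284791) among them, and reached 27571541 in E18 replicate 1. With these totals a count of 0 allows up to 3 counts, or 0.109 to 0.273 CPM, which covers counting error only.

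With all 10 libraries, 323 of 12718 tested genes (2.54%) differed between E18 and E17 at an adjusted p under 0.05 (edgeR quasi-likelihood test, Benjamini-Hochberg). Of these, 243 were higher at E18 (1.91%) and 80 were lower (0.629%), and 139 changed at least 2-fold (1.09%). Without E18 replicate 3, 713 of 12811 genes differed (5.57%), 463 higher (3.61%) and 250 lower (1.95%), and 160 changed at least 2-fold (1.25%). All 323 genes were among the 713 and had the same direction, so that leaving the tooth out added 390 genes and removed 0. The median log2 fold change over all tested genes was -0.02 with the tooth and -0.01 without it. With all 10 libraries, 2021 of the 12718 genes were under 0.05 unadjusted by edgeR. Over all genes DESeq2 called 665 and voom with quality weights 1046.

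**Figure D1:**
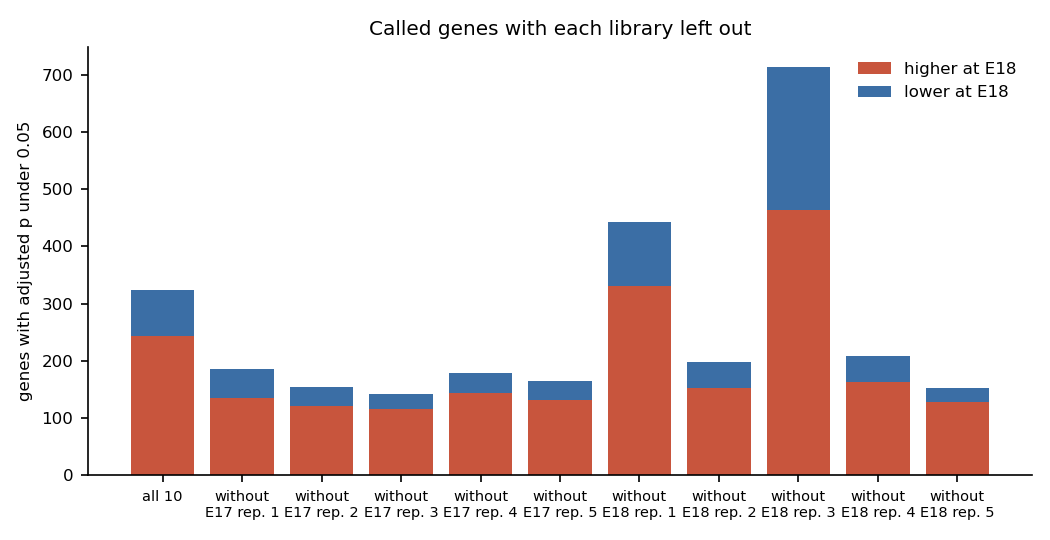
Number of genes with an adjusted p under 0.05 between E18 and E17 (vertical axis), higher at E18 in orange and lower in blue, in the fit of all 10 libraries and with each library left out in turn. The bar is highest without E18 replicate 3 (713 genes) and lowest without E17 replicate 3 (141 genes), and 442 genes were called without E18 replicate 1.

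Symbols could be joined to 356 rows, those of genes listed by the study, and 348 of them were tested. Among these, 32 differed with all 10 libraries, 27 higher and 5 lower at E18, and 46 differed without E18 replicate 3, 34 higher and 12 lower. All values per tooth below are given in the order of replicates 1 to 5. Between the stages, 39 of the 348 genes did not overlap over the 10 teeth (11.2%), against 6.78% of all tested genes, and without E18 replicate 3 the shares were 13.8% and 9.33%. The E18 teeth were uneven in the genes that rose: E18 replicate 1 was the lowest E18 tooth for 19 of the 27 genes, and replicate 5 the highest for 16 of them. Replicate 1 was also the highest for 3 of the 5 genes that fell. These counts were not made over all genes. The mean correlation of replicate 1 was 0.978 with the E17 libraries and 0.979 with E18 replicates 2, 4 and 5. Those 3 libraries had 0.972 to 0.975 with E17 and 0.983 to 0.984 within E18 without replicate 3.

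**Figure D2:**
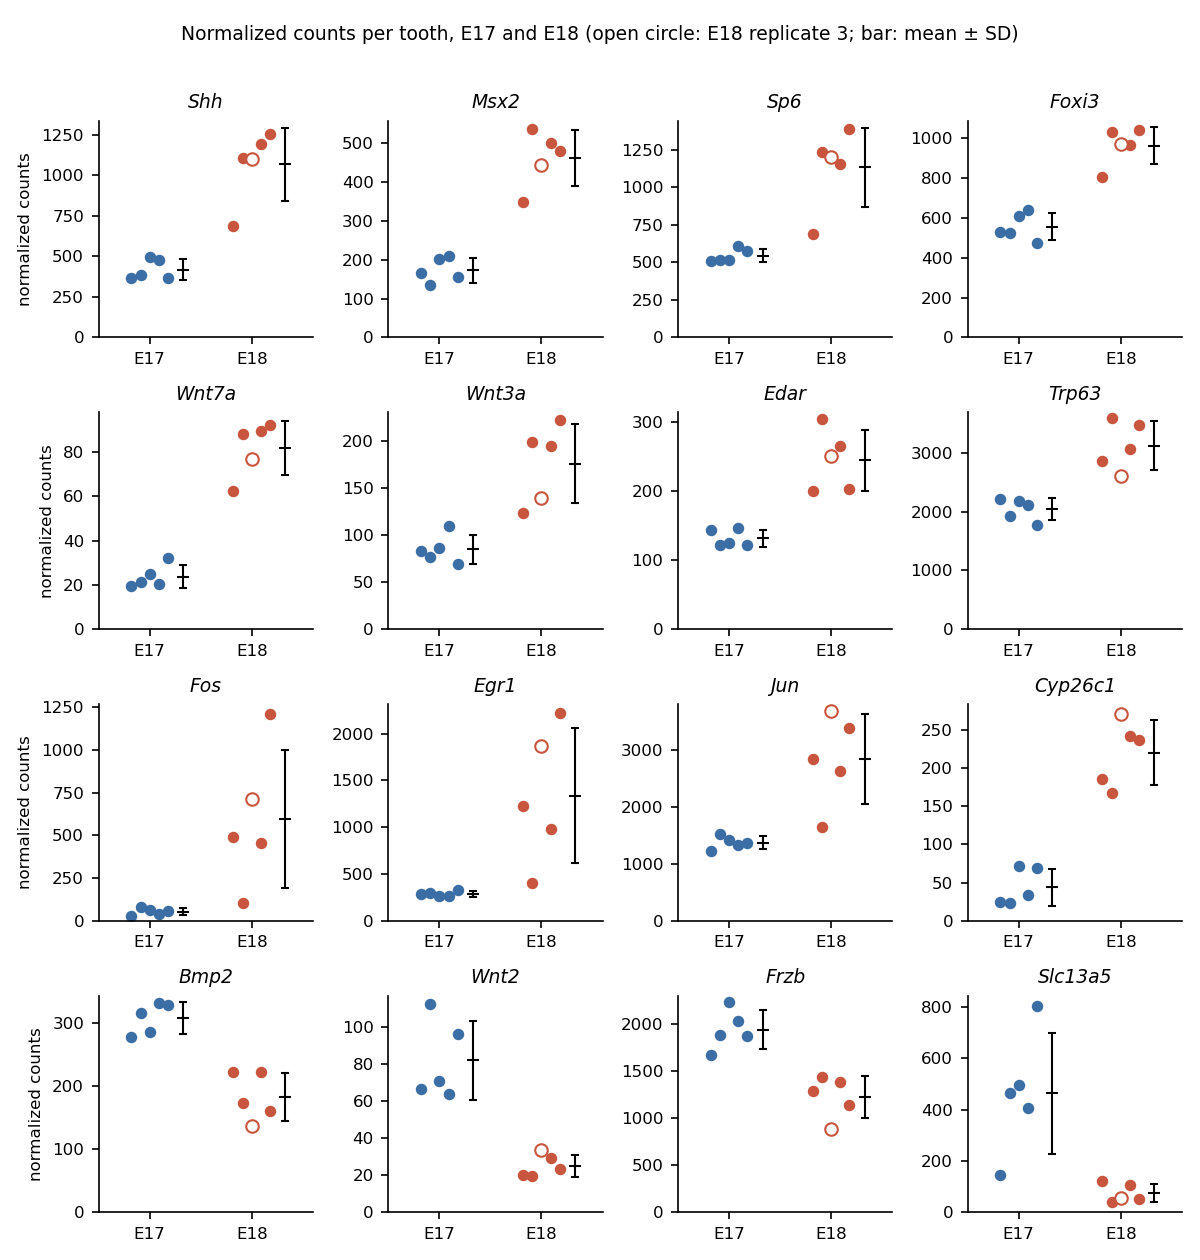
Normalized counts per tooth (vertical axes, from 0) of 16 genes at E17 (blue) and E18 (orange), with E18 replicate 3 as an open circle and the mean ± SD of the 5 teeth as a black bar. In the upper 3 rows every E18 tooth lies above every E17 tooth, and in the lowest row every E18 tooth lies below.

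Shh, the Hedgehog ligand of the enamel knot and a progression gene, rose at E18. It measured 366, 385, 495, 477 and 366 normalized counts in the E17 teeth and 686, 1105, 1098, 1191 and 1254 in the E18 teeth. The stages did not overlap, and the lowest E18 tooth was replicate 1, not replicate 3. The means were 418 ± 63.1 and 1067 ± 222 (SD, n = 5 each), a log2 fold change of 1.35 ± 0.16 (SE, edgeR adjusted p = 0.0019), and 1.32 ± 0.16 without E18 replicate 3 (adjusted p = 3.2e-04). In the E15 teeth Shh ranged from 0 to 46.6. The Hedgehog receptor Ptch1, which is itself induced by the pathway, rose less. Ptch1 measured 7326, 8835, 8031, 8516 and 8022 at E17 and 9569, 11780.5, 10506, 12560.1 and 12981 at E18, with no overlap and a log2 fold change of 0.49 ± 0.10 (adjusted p = 0.023). E18 replicate 1 was within the E17 range for Gli1, the transcription factor at the end of the pathway, and for Hhip, which binds and sequesters Hedgehog ligands. Their log2 fold changes were 0.35 ± 0.13 (adjusted p = 0.21) and 0.29 ± 0.10 (adjusted p = 0.16), and neither passed the edgeR test with all 10 libraries or without E18 replicate 3. Without E18 replicate 1, Gli1 did pass (adjusted p = 0.022). Thus 2 of 4 genes on the list of Hedgehog response genes rose with all 10 libraries, beside 1.91% of all genes, and the 4 had a median log2 fold change of 0.42. Ihh, the Hedgehog ligand best known from cartilage, was low, and its fall passed the test in part of the fits. It measured 12.02, 32.8, 68.2, 49.1 and 40.9 at E17 and 13.1, 6.13, 10.04, 17.1 and 3.54 at E18, so that the stages overlapped through E17 replicate 1. Its log2 fold change was -1.97 ± 0.48 (adjusted p = 0.057), and -1.96 ± 0.49 without E18 replicate 3 (adjusted p = 0.035). It also passed without E17 replicate 1 (adjusted p = 0.026) and by DESeq2 on all 10 libraries (adjusted p = 0.0028). The call of Shh held with each library left out but not with all 15 libraries in the fit (adjusted p = 0.093). Ptch1 lost the call without E17 replicate 1, 3, 4 or 5 or E18 replicate 2, 4 or 5 (adjusted p up to 0.073). Of all 40 Hedgehog pathway genes tested, 3 rose (beside 1.91% of all genes) and 0 fell (beside 0.629%) with all 10 libraries, and the median was -0.03.

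Among the Wnt ligands, Wnt7a, Wnt3a and Wnt6 rose and Wnt2 fell. Wnt7a, a ligand of oral epithelium, measured 19.7, 21.5, 24.96, 20.3 and 32.0 normalized counts at E17 and 62.4, 88.3, 77.0, 89.5 and 92.1 at E18. The lowest E18 tooth was well above the highest E17 tooth, and the log2 fold change was 1.78 ± 0.20 (adjusted p = 0.0014) with all teeth and 1.79 ± 0.22 without E18 replicate 3 (adjusted p = 3.4e-04). Wnt3a, which acts through beta-catenin, measured 83.0, 77.0, 85.7, 109, 68.5 and then 123, 199, 139, 194, 222. Its log2 fold change was 1.05 ± 0.19 (adjusted p = 0.018), and E18 replicates 1 and 3 were the lowest of their stage. Wnt6 rose from 374 ± 23.6 to 558 ± 83.8 (SD, n = 5 each), a log2 fold change of 0.57 ± 0.11 (adjusted p = 0.024). Wnt2 measured 66.7, 112, 70.7, 64.0 and 96.1 at E17 and 20.3, 19.6, 33.5, 29.2 and 23.6 at E18, with no overlap. Its log2 fold change was -1.70 ± 0.23 (adjusted p = 0.0040), a 3.25-fold lower level, and 3.55-fold lower without E18 replicate 3. At E15 it had ranged from 103 to 157, above all E18 teeth. Wnt7a and Wnt2 kept the call with each library left out. Wnt3a lost it without E17 replicate 1, 2, 3 or 5 or E18 replicate 5 (adjusted p up to 0.058), and Wnt6 without any library but E18 replicate 1, 3 or 4 (up to 0.074). Wnt6 also lost the call with the 2 molars of the same E17 embryo joined into 1 sample (adjusted p = 0.060).

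For further Wnt ligands the call differed between fits. Wnt7b did not overlap between the stages in any tooth, and its log2 fold change was 0.52 ± 0.13 with all teeth (adjusted p = 0.075) and 0.40 ± 0.11 without the tooth (adjusted p = 0.042). DESeq2 (adjusted p = 0.022) and voom (adjusted p = 0.022) called Wnt7b with the tooth included. Wnt5a, a ligand of the mesenchyme that acts largely without beta-catenin, measured 1558 in E18 replicate 3 and 2214 to 2634 in the other E18 teeth, against 1533 to 2139 at E17. Its log2 fold change was 0.24 ± 0.14 (adjusted p = 0.43) with that tooth and 0.34 ± 0.09 without it (adjusted p = 0.042). With all 10 libraries Wnt5a was called by voom with quality weights alone (adjusted p = 0.028). Wnt10a, a shape gene, had a log2 fold change of 0.55 ± 0.15 (adjusted p = 0.093) and 0.43 ± 0.12 (adjusted p = 0.064), and Wnt10b one of 0.29 ± 0.12 (adjusted p = 0.24) and 0.27 ± 0.11 (adjusted p = 0.21). Without E18 replicate 1, Wnt10a was called (adjusted p = 0.026), as it was by DESeq2 on all 10 libraries (adjusted p = 0.033). Of the 16 tested genes typed as Wnt ligands, 3 rose and 1 fell with all teeth (25%, beside 2.54% of all genes), and 5 rose and 1 fell without E18 replicate 3 (37.5%, beside 5.57%). Their median log2 fold change was 0.27, against -0.02 over all tested genes.

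Some secreted Wnt antagonists fell, and none of the 9 tested rose with all 10 libraries or without E18 replicate 3. Frzb, a soluble decoy of Wnt ligands, measured 1673, 1889.9, 2235, 2039, 1875 at E17 and 1286, 1444, 883, 1389, 1147 at E18, with no overlap and a log2 fold change of -0.66 ± 0.13 (adjusted p = 0.024). E18 replicate 3 was the lowest, and without it the log2 fold change was -0.57 ± 0.09 (adjusted p = 0.0020). Sfrp2, of the same family, fell from 8096 ± 935 to 5601 ± 765 (SD, n = 5 each), a log2 fold change of -0.53 ± 0.11 (adjusted p = 0.036). Frzb lost the call without E17 replicate 2, 3, 4 or 5 or E18 replicate 5 (adjusted p up to 0.081), and Sfrp2 without any library but E17 replicate 4 or E18 replicate 1 or 3 (up to 0.10). Joining the 2 molars of the same E17 embryo ended the call of Sfrp2 too (adjusted p = 0.055). Dkk2, a blocker of the Wnt co-receptors, did not overlap between the stages, at -0.37 with all teeth (adjusted p = 0.060) and -0.32 ± 0.07 without E18 replicate 3 (adjusted p = 0.012). With all 10 libraries DESeq2 called Dkk2 (adjusted p = 0.011). Of 14 antagonists listed, 9 were tested, and the others were not assessed under their names. Of the 9, 2 fell and 0 rose with all teeth, beside 0.629% of all genes lower, and 3 fell without the tooth, beside 1.95%. The 6 tested genes on the list of Wnt response genes were not called by edgeR with all 10 libraries. Axin2 had a log2 fold change of 0.02 ± 0.10 (adjusted p = 0.91), with a sign that turned to -0.03 without E18 replicate 3, and Lef1, a progression gene, one of 0.36 ± 0.11 (adjusted p = 0.13). Nkd2, a feedback inhibitor of the pathway, had the smallest adjusted p of the list, with a log2 fold change of 0.44 ± 0.12 (adjusted p = 0.092). It measured 1165 to 1424 at E17 and 1239, 1718, 1975, 1769 and 1884 at E18, so that replicate 1 alone lay within the E17 range. Without E18 replicate 1 both Nkd2 (adjusted p = 0.010) and Lef1 (adjusted p = 0.032) were called. None of 6 Wnt response genes was called by edgeR with all 10 libraries or without E18 replicate 3, beside 2.54% and 5.57% of all genes. In the latter fit Nkd2 was at an adjusted p of 0.060 and Lef1 at 0.077. With all 10 libraries 2 were under 0.05 unadjusted by edgeR, beside 2021 of all 12718 genes, and DESeq2 called 1 and voom 2. Dkk4, with E18 replicate 3 as far below as described, had a log2 fold change of -0.41 ± 0.44 with that tooth and -0.13 ± 0.14 without it, the latter with a 95% interval of -0.42 to 0.16. Sostdc1, a shape gene that blocks BMP and Wnt signals and restrains crown patterning, measured 2319.6 in E18 replicate 3, 3733 in replicate 1 and 5299 to 5386 in the other E18 teeth, against 3570.4 to 5027 at E17. Its log2 fold change was 0.08 ± 0.21 (adjusted p = 0.86) and 0.23 ± 0.12 without E18 replicate 3 (adjusted p = 0.30). With both E18 replicates 1 and 3 left out, a fit chosen after seeing the data, Sostdc1 was called higher by edgeR (0.35, adjusted p = 0.037).

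**Figure D3:**
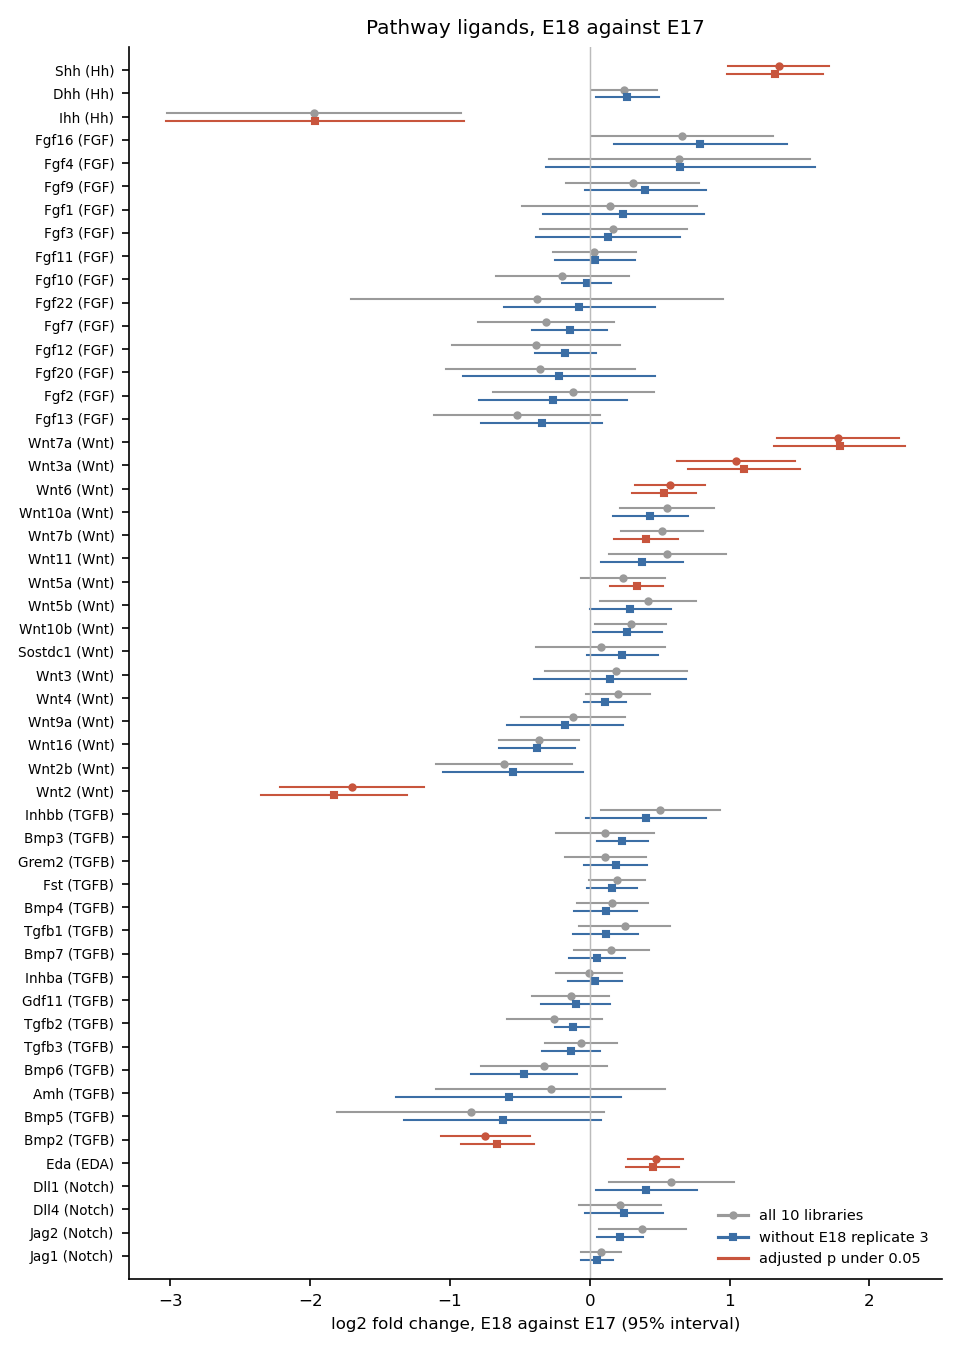
Log2 fold change, E18 against E17, with its 95% interval (horizontal axis) for the tested ligands of 6 pathways (vertical axis), with all 10 libraries (circles) and without E18 replicate 3 (squares), and with an adjusted p under 0.05 in orange. Shh, Wnt7a, Wnt3a, Wnt6 and Eda lie to the right and Wnt2 and Bmp2 to the left in both fits, whereas the FGF intervals are in grey and blue alone.

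Bmp2, a shape gene and BMP ligand, was the only one of the 16 tested genes typed as TGF-beta ligands that passed with all 10 libraries or without E18 replicate 3. It measured 278, 317, 287, 333 and 329 at E17 and 222, 174, 137, 222 and 161 at E18. All E18 teeth were below all E17 teeth, and the log2 fold change was -0.75 ± 0.14 (adjusted p = 0.023), and -0.66 ± 0.12 without E18 replicate 3 (adjusted p = 0.0060). The call was lost without E17 replicate 2, 3, 4 or 5 or E18 replicate 2 or 5 (adjusted p up to 0.073). Bmp4, a progression gene that signals between mesenchyme and enamel knot, had a log2 fold change of 0.16 ± 0.12 (adjusted p = 0.53), and Bmp7 one of 0.15 ± 0.12 (adjusted p = 0.57). Msx2, a homeobox gene known as a BMP target and a shape gene, went the other way from Bmp2. It measured 165, 134, 200.5, 210.2 and 156 at E17 and 348, 537, 444, 501 and 481 at E18. The lowest E18 tooth, replicate 1, was above all E17 teeth, and the log2 fold change was 1.41 in both fits (SE 0.16 and 0.15, adjusted p = 0.0014 and 1.5e-04). Its relative Msx1, a progression gene of the mesenchyme, had a log2 fold change of -0.14 ± 0.12 (adjusted p = 0.60). Of 52 TGF-beta pathway genes tested, 1 rose and 1 fell with all libraries (3.85%, beside 2.54% of all genes). The riser was Jun, which is described with the immediate early genes below.

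The ligand Eda and its receptor Edar, both shape genes, rose together. Eda measured 295, 309, 372, 301, 300.5 at E17 and 413, 451, 451, 421, 451 at E18, a log2 fold change of 0.47 ± 0.09 (adjusted p = 0.022). Edar measured 144, 122, 126, 146, 122 and then 201, 305, 251, 266, 203, a log2 fold change of 0.89 ± 0.14 (adjusted p = 0.0078). Neither gene overlapped between the stages. Edar kept the call with each library left out, and Eda lost it without E17 replicate 1, 2, 4 or 5 or E18 replicate 2 or 5 (adjusted p up to 0.068) or with the 2 molars of the same E17 embryo joined (adjusted p = 0.056). Edaradd, the adaptor that joins the receptor to its signalling chain, measured 181 in E18 replicate 3 and 234 to 314 in the other E18 teeth, against 148 to 194 at E17. The log2 fold change was 0.51 ± 0.15 with that tooth (adjusted p = 0.11) and 0.60 ± 0.12 without it (adjusted p = 0.0093). With the tooth included, DESeq2 (adjusted p = 0.048) and voom (adjusted p = 0.0038) called Edaradd. The EDA list thus had 2 of 17 genes up with all teeth (11.8%, beside 1.91% of all genes), 3 of 17 without the tooth (17.6%, beside 3.61%), and 0 down in both, with medians of 0.12 and 0.07.

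None of the 60 FGF pathway genes tested was called by edgeR with all 10 libraries, beside 2.54% of all genes. Unadjusted, 9 were under 0.05 by edgeR, beside 2021 of all 12718 genes, and DESeq2 called 2 and voom 3. The knot ligand Fgf4 was low throughout, at 3.20 to 20.0 normalized counts at E17 and 14.7 to 20.1 at E18 (log2 fold change 0.64 ± 0.42, adjusted p = 0.50), so that its 95% interval from -0.29 to 1.57 spans a wide range of changes. The other knot ligands Fgf9 and Fgf20 had log2 fold changes of 0.31 ± 0.22 and -0.35 ± 0.31 (adjusted p = 0.53 and 0.60). Fgf3, the mesenchymal ligand and a shape gene, measured 64.9 to 148 and 78.4 to 139 (0.17 ± 0.24, adjusted p = 0.73). The feedback inhibitors Spry2 and Spry4, shape genes that report FGF activity, had log2 fold changes of 0.22 ± 0.10 and 0.19 ± 0.07 (adjusted p = 0.31 and 0.24). Without E18 replicate 3, the pathway had 2 rises, Hras (0.27 ± 0.07, adjusted p = 0.028) and Stat3 (0.19 ± 0.05, adjusted p = 0.046), and the fall of Pdgfra, which is described with the mesenchyme. These calls are 5% of the pathway, beside 5.57% of all genes. By edgeR at an unadjusted p, Hras (0.0017) and Stat3 (0.0062) were also under 0.05 with all 10 libraries.

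Notch pathway genes were called in neither direction with all 10 libraries (0 of 30, beside 2.54% of all genes). A positive log2 fold change was found in 24 of the 30, beside 47.7% of all genes, with a median of 0.17. Unadjusted, 12 were under 0.05 by edgeR, beside 2021 of all 12718 genes, and DESeq2 called 0 and voom 3. Notch1, a receptor found in dental epithelium, measured 8174 in E18 replicate 3 and 5122 to 6473 in the other E18 teeth, against 4946 to 5221 at E17. Its log2 fold change was 0.34 ± 0.11 (adjusted p = 0.15), and 0.23 ± 0.07 without E18 replicate 3 (adjusted p = 0.061). Without E18 replicate 1 Notch1 was called (adjusted p = 0.047). Notch2 did not overlap between the stages and rose in the fit without E18 replicate 3, by 0.18 ± 0.05 on the log2 scale (adjusted p = 0.049), but did not pass with all 10 libraries by edgeR (adjusted p = 0.14). The ligands Jag1 and Jag2 had log2 fold changes of 0.08 ± 0.07 (adjusted p = 0.58) and 0.38 ± 0.14 (adjusted p = 0.22).

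Over all 6 pathways, 9 of 236 genes rose and 3 fell with all libraries, which is 5.08% of them, and 15 rose and 7 fell without E18 replicate 3, which is 9.32%. The calls were unequal between kinds of molecule. Ligands held 5 rises and 2 falls among 52 tested genes (13.5%), receptors 3 rises among 33 (9.09%), transcription factors 1 rise among 28 (3.57%), and intracellular components 0 rises and 1 fall among 123 (0.813%), beside the 2.54% of all genes. Without E18 replicate 3 the shares were 19.2%, 15.2%, 10.7% and 3.25%, beside 5.57% of all genes. The typing used here counts secreted Wnt antagonists among the intracellular components. The 1 fall among these components was the secreted Sfrp2, and the 2 falls without E18 replicate 3 were Sfrp2 and Dkk2.

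**Figure D4:**
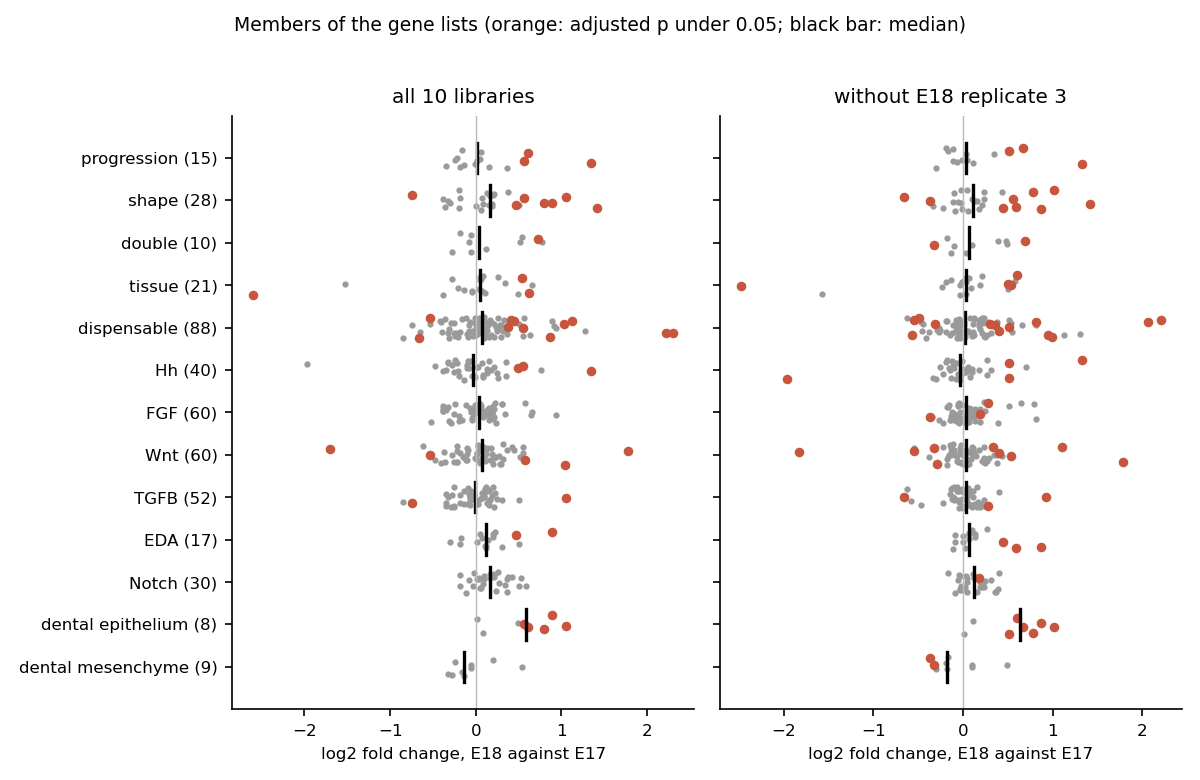
Log2 fold change, E18 against E17 (horizontal axes), of the tested members of 13 lists (vertical axis, number of members in brackets), with all 10 libraries on the left and without E18 replicate 3 on the right, genes with an adjusted p under 0.05 in orange and the list median as a black bar. The bar of the dental epithelium list (0.59 and 0.64) lies farthest from 0, and that of the dental mesenchyme list (-0.14 and -0.17) lies below 0.

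Among the categories of the study, 3 of 15 progression genes rose and 0 fell (20.0%, beside 2.54% of all genes with all libraries and 5.57% without E18 replicate 3), with Shh and Trp63 among them. Of 28 shape genes, 6 rose and 1 fell with all libraries (25%, beside 2.54%), and 7 rose and 2 fell without the tooth (32.1%, beside 5.57%). The risers were Msx2, Sp6, Edar, Foxi3, Bcl11b and Eda, joined by Edaradd, and the genes that fell were Bmp2, joined by Pdgfra. Of 10 double genes, Dlx3, a homeobox gene of enamel-forming epithelium, rose by 0.73 ± 0.14 on the log2 scale (adjusted p = 0.024), and Lhx8 fell without E18 replicate 3. The calls are 10% of the double genes with all libraries, beside 2.54% of all genes, and 20% without the tooth, beside 5.57%. Dlx3 lost the call without E17 replicate 2, 3 or 5 or E18 replicate 2, 4 or 5 (adjusted p up to 0.073), and with all 15 libraries in the fit (adjusted p = 0.078). Of 21 tissue genes, 2 rose, 1 fell and 18 did not pass (14.3% called, beside 2.54%). The dispensable list had 9 rises and 2 falls among 88 genes (12.5%, beside 2.54%). Ctnnb1, the progression gene that encodes beta-catenin, measured 17999 in E18 replicate 3 and 13965 to 14754 in the other E18 teeth, against 13699 to 15326 at E17, and its log2 fold change turned from 0.02 ± 0.09 to -0.07 ± 0.05 without that tooth (adjusted p = 0.94 and 0.49). Median log2 fold changes were 0.02 for progression, 0.16 for shape, 0.03 for double, 0.05 for tissue and 0.07 for dispensable genes, beside -0.02 for all genes.

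Most genes on the dental epithelium list that could be joined to a row rose. Sp6, a zinc finger factor of enamel epithelium, measured 507, 513, 515, 606 and 576 at E17 and 685, 1231, 1203, 1150.3 and 1388 at E18. Its lowest E18 tooth was replicate 1, and the log2 fold change was 1.06 ± 0.16 (adjusted p = 0.0069). Foxi3, a forkhead factor of ectodermal placodes, rose from 556 ± 66.6 to 963 ± 94.98 (SD, n = 5 each; 0.79 ± 0.10, adjusted p = 0.0026). Trp63, the factor that maintains stratified epithelia, measured 1779 to 2217 at E17 and 2605 to 3595 at E18, with E18 replicate 3 the lowest (0.61 ± 0.10, adjusted p = 0.011). Sp6, Foxi3 and Trp63 kept the call with each library left out. Perp, a desmosomal protein under Trp63 control, measured 1765 in E18 replicate 3 against 2697 to 3598 in the other E18 teeth. Perp did not pass with all 10 libraries by edgeR (adjusted p = 0.15), and passed without that tooth (0.61 ± 0.09, adjusted p = 0.0020) and, with it, by voom with quality weights (adjusted p = 5.9e-04). Cdh3, an epithelial cadherin, had a log2 fold change of 0.09 ± 0.10 (adjusted p = 0.68). Of the 14 genes on the list of dental epithelium, 8 could be joined to a row, and the others were not assessed under their names. Of these 8, 5 rose with all teeth (62.5%, beside 1.91% of all genes), 6 without the tooth (75%, beside 3.61%), and 0 fell. Bcl11b, a zinc finger factor and shape gene, rose from 1612 ± 82.2 to 2388 ± 275 (0.57 ± 0.09, adjusted p = 0.0068). Cdkn1a, the cell cycle inhibitor that marks the enamel knot, measured 287 to 474 at E17 and 476, 454, 773, 382 and 609 at E18 (0.55 ± 0.20, adjusted p = 0.20).

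The dental mesenchyme list had mostly negative log2 fold changes and no call with all teeth. Of 12 genes listed, 9 could be joined to a row, and of these 0 were called by edgeR with all 10 libraries (beside 2.54% of all genes). A negative log2 fold change was found in 7 and a positive one in 2, beside 47.7% of all genes with a positive one. Unadjusted, 3 were under 0.05 by edgeR, beside 2021 of all 12718 genes, and DESeq2 called 1 and voom 3. Pdgfra, a growth factor receptor of mesenchyme, measured 8172 to 10459 at E17 and 7843, 7116, 8317, 7627 and 6603 at E18 (-0.32 ± 0.10, adjusted p = 0.13). Without E18 replicate 3 it fell by 0.36 on the log2 scale (adjusted p = 0.016), and Lhx8, a LIM homeobox factor, fell by 0.32 (adjusted p = 0.030). Pax9 and Runx2, progression genes of the mesenchyme, had log2 fold changes of -0.16 ± 0.16 and -0.24 ± 0.15 (adjusted p = 0.65 and 0.47). The members with positive values were Barx1, the molar homeobox gene (0.20 ± 0.11, adjusted p = 0.40), and Dlx2, a homeobox factor. Dlx2 had the log2 fold change farthest from 0 in the list (0.55 ± 0.19, adjusted p = 0.19), and measured 706 to 1211 at E17 and 795, 1222, 1402, 1371 and 1554 at E18. Without E18 replicate 1 Dlx2 was called (adjusted p = 0.043).

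The summed level of the 8 epithelial genes was 9525 to 11054 normalized counts in the E17 teeth and 12485 to 16510 in the E18 teeth, and that of the 9 mesenchymal genes was 28504 to 30278 and 24946 to 27587. Neither sum overlapped between the stages. In whole teeth, more cells of a type and more RNA per cell cannot be told apart, and this holds for every epithelial gene named here, Shh, the Wnt ligands and Edar included. Per 1000 counts of the summed epithelial genes in the same tooth, Shh measured 33.7 to 46.4 at E17 and 54.9 to 83.1 at E18, and Msx2 14.0 to 19.0 and 27.8 to 33.9. Wnt7a measured 1.81 to 3.26 and 4.99 to 6.06, and Wnt3a 6.96 to 9.85 and 9.87 to 13.9. On this scale the stages stayed apart for these genes, narrowly for Wnt3a, while Wnt6 (34.1 to 39.8 and 33.9 to 45.8) and Dlx3 (54.1 to 87.4 and 77.2 to 109) overlapped. Aqp3 (24.5 to 33.6 and 31.1 to 74.9) overlapped too, and Irx2 (8.54 to 19.4 and 19.9 to 25.6) stayed narrowly apart. These ratios are a description and were not tested.

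The largest rise of a gene with a symbol was that of Fos, a member of the AP-1 transcription factor and classed by the study as a gene needed for eruption. With Egr1 and Jun it belongs to the immediate early genes, which cells transcribe within minutes of a stimulus and without new protein synthesis. Fos measured 28.4, 82.6, 61.6, 37.3 and 59.7 at E17 and 493, 105, 711, 457 and 1208 at E18. Egr1 measured 287, 292, 263, 261 and 333 at E17 and 1227, 399.7, 1867, 980.4 and 2218 at E18. Jun measured 1232, 1536, 1414, 1327 and 1365 at E17 and 2846, 1643, 3693, 2639.5 and 3392 at E18. All E18 teeth were above all E17 teeth for each gene, but the E18 teeth were spread widely, with replicate 2 the lowest for all 3 genes and the order of the teeth identical for Fos and Egr1 (5, 3, 1, 4, 2 from high to low). The log2 fold changes were 3.46 ± 0.55 for Fos (adjusted p = 0.0084), 2.22 ± 0.37 for Egr1 (adjusted p = 0.011) and 1.05 ± 0.18 for Jun (adjusted p = 0.014). Without E18 replicate 3 they were 3.38, 2.06 and 0.93. The summed level of the 3 genes was 1547 to 1910 at E17 and 2148 to 6819 at E18. Of 29 immediate early genes listed, these 3 alone could be joined to a row. The labels differ between the stages in the reagent named, and stage and any effect of dissection or storage on these values cannot be told apart.

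Fos and Egr1 carry binding sites for serum response factor, the CArG boxes, by which they respond to growth factors. The 250 bases before the start of Egr1 are shown because this gene rose with the spread described, and the RefSeq promoters used here (build GRCr8) held an entry for it. In it, CArG boxes are in capitals.
Egr1, chr18:26736828-26737077, plus strand: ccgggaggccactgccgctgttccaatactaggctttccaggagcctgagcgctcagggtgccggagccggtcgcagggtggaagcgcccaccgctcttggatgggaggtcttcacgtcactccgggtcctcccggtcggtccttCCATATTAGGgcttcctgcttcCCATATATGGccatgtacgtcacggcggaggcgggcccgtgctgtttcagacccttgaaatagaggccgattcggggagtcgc
The boxes begin 105 and 83 bases before the start. The motif is its own reverse complement, so that a match covers both strands, and the boxes do not overlap. At least 1 such box was present in 1.5% of the 33469 stretches of the same length before RefSeq starts, and 2 or more in 0.0209% (7 stretches). This match is a description of the sequence and no measure of binding.

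Several dispensable and tissue genes changed by as much as the signalling genes. Cyp26c1, an enzyme that degrades retinoic acid, measured 24.0, 22.6, 71.5, 33.1 and 68.5 at E17 and 185, 167, 271, 242 and 236 at E18. The stages were far apart, and the log2 fold change was 2.31 ± 0.33 (adjusted p = 0.0052), after 2.20 to 12.4 at E15. Aqp3, a water and glycerol channel of epithelia, rose from 314 ± 39.3 to 686 ± 210.4 (SD, n = 5 each; 1.13 ± 0.19, adjusted p = 0.013), and E18 replicate 3 was the highest at 989.6. Irx2, a homeobox factor, rose by 1.03 ± 0.21 on the log2 scale (adjusted p = 0.029), and Thy1, a surface protein of mesenchymal and other cells, by 0.87 ± 0.16 (adjusted p = 0.020). Cyp26c1 and Aqp3 kept the call with each library left out. Irx2 lost it without E17 replicate 2, 3 or 5 or E18 replicate 2, 4 or 5 (adjusted p up to 0.088), and Thy1 without any E17 replicate or E18 replicate 5 (up to 0.062) or with the 2 molars of the same E17 embryo joined (adjusted p = 0.055). Nectin1, an adhesion molecule of enamel epithelium, rose by 0.62 ± 0.11 (adjusted p = 0.016) and Fam20c, the kinase of secreted mineral proteins, by 0.54 ± 0.09 (adjusted p = 0.014). Fam20c kept the call with each library left out but not with all 15 libraries in the fit (adjusted p = 0.064). Nectin1 lost the call without E17 replicate 2 or E18 replicate 5 (adjusted p up to 0.053), and Col4a1 without any E17 replicate or E18 replicate 4 or 5 (up to 0.12) or with those molars joined (adjusted p = 0.084). Col4a1, a basement membrane collagen, rose by 0.45 ± 0.10 (adjusted p = 0.040), and the syndecans Sdc4 and Sdc1, proteoglycans of the cell surface, by 0.41 ± 0.09 and 0.38 ± 0.08 (adjusted p = 0.041 and 0.037). Sdc1 and Sdc4 kept the call with E18 replicate 1 or 3 left out and lost it without any other library (up to 0.10 and 0.12) and with the molars joined (adjusted p = 0.083 and 0.098).

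The largest fall of a gene with a symbol was that of Slc13a5, a citrate transporter of mineralizing tissue. It measured 144, 463, 497, 404 and 804 at E17 and 121, 41.7, 54.7, 106 and 50.8 at E18. The stages did not overlap, but only narrowly so, since E17 replicate 1 (144) lay near E18 replicate 1 (121). The log2 fold change was -2.60 ± 0.44 (adjusted p = 0.011), a 6.06-fold lower level, and 5.58-fold lower without E18 replicate 3. Genes of mineralizing bone also varied within E17. Alpl, an alkaline phosphatase, measured 1435 in E17 replicate 1 and 3245 to 3876 in the other E17 teeth, and Spp1 measured 24.0 to 659 at E17 and 56.4 to 344 at E18. Dmp1, a matrix protein of bone and dentine, measured 18.6 to 493 at E17 and 42.9 to 66.9 at E18 (-1.53 ± 0.63, adjusted p = 0.27). Of 10 bone markers listed, only Alpl, Spp1 and Col1a1 could be joined to a row, so that the others were not assessed under their names. Of these 3 genes, 0 passed by edgeR (beside 2.54% of all genes), DESeq2 or voom. By edgeR 0 were under 0.05 unadjusted, beside 2021 of all 12718 genes. Their part in the Slc13a5 result was not tested. Mmp9, a protease of osteoclasts, measured 80.9 to 635 and 465 to 1063 (1.27 ± 0.41, adjusted p = 0.16). Of 3 osteoclast genes tested, 0 passed by edgeR (beside 2.54% of all genes), and 1 was called by DESeq2 and by voom. Unadjusted, 2 were under 0.05 by edgeR, beside 2021 of all 12718 genes.

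Other genes were not called with all 10 libraries by edgeR and were called without E18 replicate 3. Lrrn3, a neuronal adhesion protein, measured 30.1 in that tooth, 165 to 223 in the other E18 teeth and 225 to 335 at E17, and its log2 fold change moved from -0.74 ± 0.38 (adjusted p = 0.37) to -0.49 ± 0.13 (adjusted p = 0.045). Ptprz1, a receptor phosphatase, measured 446 in that tooth against 1602 to 1889 in the others and 1760.4 to 2294 at E17, and moved from -0.53 ± 0.30 (adjusted p = 0.42) to -0.31 ± 0.08 (adjusted p = 0.041). In both genes the tooth made the estimate larger and the error larger still. Tle1, a co-repressor of Wnt targets, measured 1705 in it against 1383 to 1458 in the others, and moved from -0.22 ± 0.08 (adjusted p = 0.21) to -0.29 ± 0.06 (adjusted p = 0.0093), and voom called it with the tooth included (adjusted p = 0.0071).

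**Figure D5:**
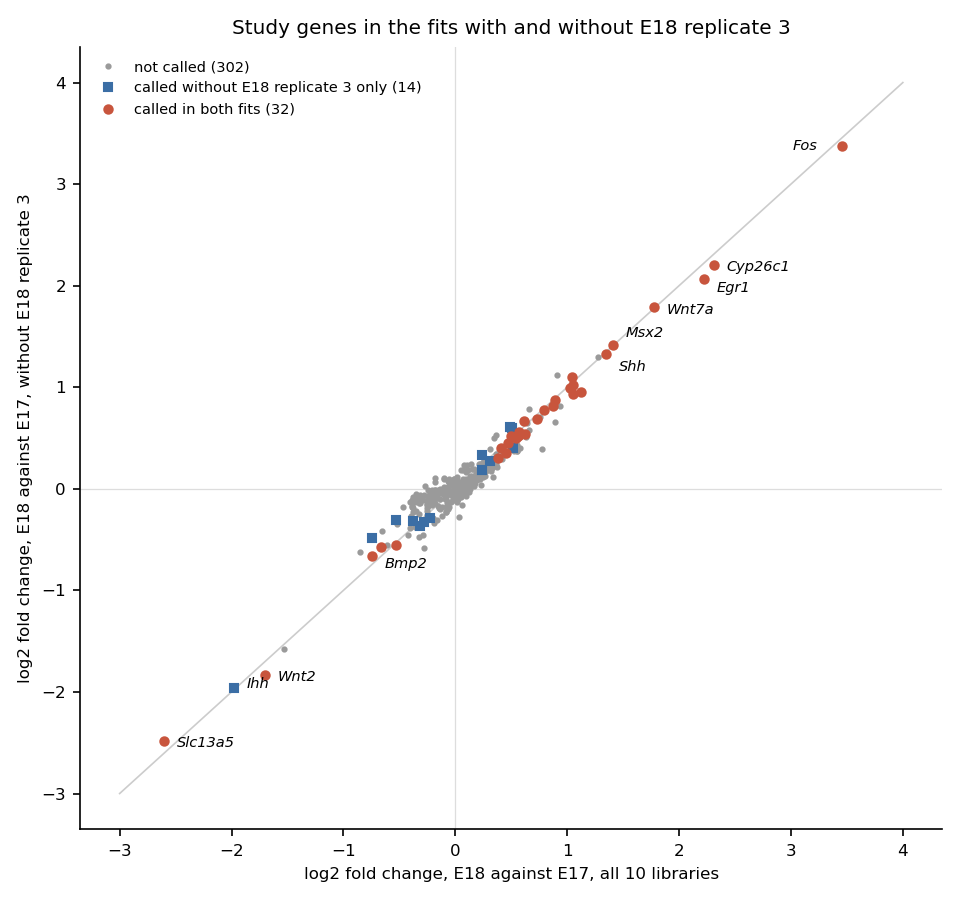
Log2 fold change, E18 against E17, of 348 study genes with all 10 libraries (horizontal axis) and without E18 replicate 3 (vertical axis), with genes called in both fits as orange circles (32), genes called in the second fit alone as blue squares (14) and other genes in grey (302). The called genes lie along the diagonal line of equal values, from Slc13a5 (-2.60 and -2.48) to Fos (3.46 and 3.38).

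Larger changes were present among genes with no symbol joined to their identifier. ENSMUSG00000024565 measured 3.20 to 14.1 normalized counts at E17 and 146, 244, 177, 219 and 229 at E18, a 23.4-fold higher level (log2 fold change 4.55 ± 0.29, adjusted p = 9.6e-05). ENSMUSG00000003545 was 31.1-fold higher (4.96 ± 0.70, adjusted p = 0.0047). It ranged from 13.1 to 27.2 at E17 and from 57.6 to 1467 at E18, with replicate 2 the lowest and replicate 5 the highest, as for Fos and Egr1. ENSMUSG00000079523 was 12.9-fold lower (-3.69 ± 0.71, adjusted p = 0.023), at 695 to 1487 and then 34.8, 49.0, 3.35, 237 and 33.1. ENSMUSG00000029306 was 6.65-fold lower (-2.73 ± 0.59, adjusted p = 0.036), and it overlapped, because E17 replicate 1 (899) lay below E18 replicate 4 (931).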

How the data were processed

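RNA of single molar germs was sequenced by the study (Ovation rat library kit). Per the labels, the processing notes of E18 name Trimmomatic 0.39 and Salmon 0.99.0, and those of E17 name STAR and HTSeq, all with Rnor_6.0. How the salmon values of E17 were made is not given in the sources used here. The authors deposited these expected counts as whole numbers for 14185 genes under mouse Ensembl identifiers, with neither normalization nor length correction, so rounding changed no value. Whether strand was used and how paralogs were split is not stated. The second deposited table, HTSeq counts without E18, was not used here.

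Symbols were taken from the study's own 399 symbols with their identifiers, and 356 of these identifiers were in the table. Genes were tested with the edgeR 4.0.16 quasi-likelihood F test in R 4.3.3 (TMM, filterByExpr, stage as the term, Benjamini-Hochberg over all genes tested, threshold 0.05), on 10 libraries and on 9 without E18 replicate 3. SE was derived from the F statistic. Normalized counts are counts over DESeq2 1.42.0 size factors of all 15 libraries. The test was also run on simulated data. Alternatives used DESeq2, limma 3.58.1 voom with quality weights, other scaling and filters, side as a term, and libraries left out. Replicate numbers follow accession order and pair nothing. When the 2 libraries of each of the 20 pairs within E17 or E18 were compared, chi-square divided by genes was 6.21 to 156, so no library was a copy of another. The p-values measure the spread between teeth, including a pair from the same embryo.

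Genes named are the 12 largest rises and falls among called genes with a symbol and a mean of at least 50 normalized counts, all called progression, shape, double and no-eruption genes, ligands and receptors, a fixed set of signalling genes, and the 4 members of each list with the smallest adjusted p. A few others were named after their values were seen: Sp3, Bmpr1a, Lrrn3, Ptprz1, Tle1, Dmp1, Bmp7, Sdc1 and Sdc4. A few genes that these rules would name are not reported here. Members and lists were chosen with earlier results of these data known. Lists of 27 kinds were drawn up, and 12 of them had at least 3 members with a tested row. Markers of muscle, cartilage, glia, neuron, endothelium, blood, macrophage and oral surface epithelium had no joined symbol, so admixture of these tissues was not analysed here.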

Additional observations from a re-analysis of the deposited data

Results flagged for a closer look

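Among 194 groups of 5 teeth, 18 held a highest or lowest value separated from the nearest other tooth by more than 0.71 of the group's range, where chance gives about 9.7. Among these 18, E18 replicate 1 was the lowest E18 tooth for 3 genes: Shh (686 normalized counts), Lef1 (1997) and Wnt10b (241). It also had the largest total (27571541 counts). The part of this depth in these values was not tested. In E18 replicate 3 were found the lowest mean correlation with its stage (0.879), the lowest Dkk4 (12.3), the highest Ctnnb1 (17999) and the highest Fam20c (386). That correlation is the value for which this tooth was set apart from the outset. E18 replicate 4 had the highest level of ENSMUSG00000079523 (237).

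At E17, replicate 1 was the lowest tooth for Alpl (1435), Dlx3 (588) and Nrp2 (4945), and the highest for Pax9 (2879). Replicate 4 was the highest for Dkk4 (186), Jag1 (3552) and Spp1 (659). Replicate 3 was the highest for Eda (372) and had the largest E17 total (16239849 counts).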

How the results depend on the processing

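No paired analysis was possible because replicate numbers follow accession order, and embryo numbers shared by the titles stand under different title codes and stages. The count of 323 called genes depended on the libraries: with each left out in turn it ranged from 141 to 713 (116 to 463 higher, 25 to 250 lower, 90 to 166 at least 2-fold, 16 to 46 study genes). It was 212 with the teeth of E17 embryo Emb2 joined (160 higher, 52 lower), 665 by DESeq2 (467 higher, 198 lower, 215 at least 2-fold), 1046 by voom (672 higher, 374 lower, 61 study genes) and 90 at a threshold of 0.01. Side as a term left 53 lower genes. Chosen after seeing the data, 9 libraries without E18 replicate 3 gave 1044 calls by DESeq2 (644 higher, 400 lower, 58 study genes) and 687 with library totals alone (450 higher, 237 lower), and leaving out E18 replicates 1 and 3 gave 1072 (625 higher, 447 lower, 62 study genes). The causes were not tested. The tissue median moved from 0.050 to -0.010 under voom.

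Of the 28 called genes that were named by the rules above, 0 changed sign and 13 kept the call under all alternatives. Sdc1 and Sdc4, named after their values were seen, are not among these 28 and lost the call under 11 and 10 alternatives. Of the 28, Shh (adjusted p = 0.093), Dlx3 and Fam20c lost the call with all 15 libraries in the fit, Fos under voom (adjusted p = 0.051), and Wnt6, Eda, Sfrp2, Thy1 and Col4a1 with the Emb2 teeth joined. Sfrp2 and Col4a1 also lost it with library totals alone or side as a term. Of the 63 genes named by the rules and not called, 24 were called under at least 1 alternative, 11 of them without E18 replicate 3, 7 without E18 replicate 1, 22 by voom and 9 by DESeq2 on all 10 libraries. Lrrn3, Ptprz1 and Tle1, named later and called without E18 replicate 3, are not among them. Signs turned in 5 genes that were not called. With single libraries left out, the log2 fold change of Axin2 ranged from -0.031 to 0.078, Ctnnb1 from -0.067 to 0.039, Ostm1 from -0.085 to 0.0046, Sostdc1 from -0.0054 to 0.23 and Spp1 from -0.20 to 1.19. Ctnnb1 was -0.063 under voom and Spp1 -0.16 with the teeth joined. On 9 libraries Axin2, Ctnnb1 and Spp1 were -0.027, -0.064 and -0.090 by DESeq2 and -0.033, -0.070 and -0.064 with library totals, and without E18 replicates 1 and 3 Ctnnb1 was -0.059 and Spp1 -0.17.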
